A study of Mus musculus with 9 samples.

Results

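The proteasome genes were followed in whole lungs of mice exposed to air, to cigarette smoke or to the aerosol of a heated tobacco product. Members were taken by symbol: every gene whose name starts with Psma, Psmb, Psmc, Psmd or Psme and a digit, without the 3 immunoproteasome genes Psmb8, Psmb9 and Psmb10. The array carried named probes for 42 such genes among 22911 genes with a symbol, and 41 of these were bright enough to test, among 16593 tested genes. The tested members comprised 15 core particle subunits, 17 regulatory particle subunits, 3 chaperones of regulatory particle assembly (Psmd5, Psmd9 and Psmd10), 4 members of the alternative activator family (Psme1, Psme2b, Psme3 and Psme4) and 2 genes that only share the letters (Psmc3ip and Psme3ip1). Psmb11, the thymus-specific catalytic subunit, was not well above background on any of the 9 arrays and was not tested. Psme2, Psma5-ps, Psmb5-ps, Psmb6-ps, Psmb6-ps2, Psmb7-ps1 and Psmb7-ps2 matched the naming rule but had no probe that could be named through its accession. Psme2b is a near-identical copy of Psme2, so it is uncertain which of the pair its probes measured.

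The lungs came from male C57BL/6J mice, 12 weeks old at the start, that breathed fresh air, 3.5% cigarette smoke (CS) or a 3.5% aerosol of IQOS, a device that heats tobacco without burning it, over 6 months. No genetic change was named for any group. Each group had 3 single-dye (Cy3) Agilent arrays, named air 1 to 3, CS 1 to 3 and IQOS 1 to 3 by their labelled replicate numbers. Whether every array came from its own mouse is not stated, and the p-values therefore cover the spread among these 9 samples, which may be technical. The series title names apoptosis and emphysema, and the design compares the 3 exposures.

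The proteasome is the protease that degrades ubiquitin-tagged proteins. Its core particle is a barrel of stacked rings, with alpha subunits forming the gate and beta subunits enclosing the active sites. The regulatory particle caps the barrel: its base holds the ATPases that unfold substrates, and its lid removes ubiquitin. When proteasome activity is low, the transcription factor encoded by Nfe2l1 raises the subunit genes together, and the related factor encoded by Nfe2l2 (NRF2), which smoke oxidants activate, also acts on some of them through antioxidant response elements.

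Promoter sequences are shown for the catalytic subunits Psmb5 and Psmb6, and for Psmd4 and Psma6, the 2 members that passed the test for IQOS against air. Each stretch is the 100 bases just before the annotated start, 5′ to 3′ on the gene's strand, from the RefSeq promoter table (build GRCm38.p6). Capitals in Psmb5 and Psmb6 mark TGACNNNGC, the core of the antioxidant response element. Capitals in Psma6 and Psmd4 mark the NF-Y box CCAAT, which reads ATTGG on the opposite strand.
Psmb5, chr14:54617996-54618095, minus strand: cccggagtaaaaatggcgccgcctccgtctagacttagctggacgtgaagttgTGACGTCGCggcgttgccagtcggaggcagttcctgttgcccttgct
Psmb6, chr11:70525257-70525356, plus strand: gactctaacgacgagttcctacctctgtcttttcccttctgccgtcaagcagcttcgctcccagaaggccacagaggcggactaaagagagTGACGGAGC
Psma6, chr12:55384122-55384221, plus strand: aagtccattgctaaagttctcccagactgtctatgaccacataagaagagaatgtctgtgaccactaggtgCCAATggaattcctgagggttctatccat
Psmd4, chr3:95042615-95042714, minus strand: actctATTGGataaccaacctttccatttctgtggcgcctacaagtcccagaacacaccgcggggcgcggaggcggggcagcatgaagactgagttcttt

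Of the 41 tested members, 34 had an entry in the promoter table, a window of 250 bases before to 50 bases after the start. Searched on both strands, TGACNNNGC was found in 6 of them (17.6%), against 12.4% of all 27025 promoters of that length. The 6 were Psmb5, Psmb6, Psmc6, Psmd9, Psmd12 and Psme4. CCAAT was found in 14 of the 34 (41.2%), against 38.0% of all promoters. These matches describe letters in the window and do not show that a factor binds there.

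Most proteasome genes lay a little lower in the IQOS lungs than in the air lungs, and in CS lungs they lay on either side of air. All values below are log2 signals relative to the 75th percentile of the same array, changes are differences of those values ± standard error from limma with n = 3 arrays per group, and adjusted p-values are Benjamini-Hochberg values over 37258 probes. A gene passed at an adjusted p under 0.05. For IQOS minus air, 38 of 41 members had a change below 0 and the median change was -0.14, beside 52.6% of all tested genes below 0 with a median of -0.01. In 30 of the 41 every IQOS array was lower than every air array, and in 1 (Psme3) every IQOS array was higher. The background for groups that do not overlap is 15.1% of genes lower and 13.0% higher. Only 2 members passed the test, both lower, and the background is 2.87% of genes passed in either direction, 0.886% lower and 1.99% higher. An unadjusted p under 0.05 was reached by 20 members, against 20.3% of all tested genes.

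For CS minus air, 17 members had a change below 0 and 24 above 0, with a median of 0.01, where 53.0% of all tested genes were below 0 and their median was -0.02. With quantile normalization 29 of the 41 were below 0 for CS minus air, with a median of -0.03. None passed limma's test, while 11.7% of all tested genes did (6.12% lower and 5.60% higher), and 3 members had an unadjusted p under 0.05 (background 31.2%). The groups did not overlap for 4 members lower in CS (background 21.0%) and 6 higher (background 17.2%). For IQOS minus CS, 40 of 41 changes were below 0 and the median was -0.14, where 46.8% of all tested genes were below 0 and their median was 0.02. In this comparison 4 members passed, all lower (background 10.1% of genes passed in either direction, 5.18% lower and 4.94% higher), 31 were lower and 0 higher without overlap (background 16.8% and 18.4%) and 22 had an unadjusted p under 0.05 (background 29.3%). The comparisons share their arrays: both IQOS comparisons rest on the same 3 IQOS arrays, and both comparisons with air on the same 3 air arrays.

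**Figure D1:**
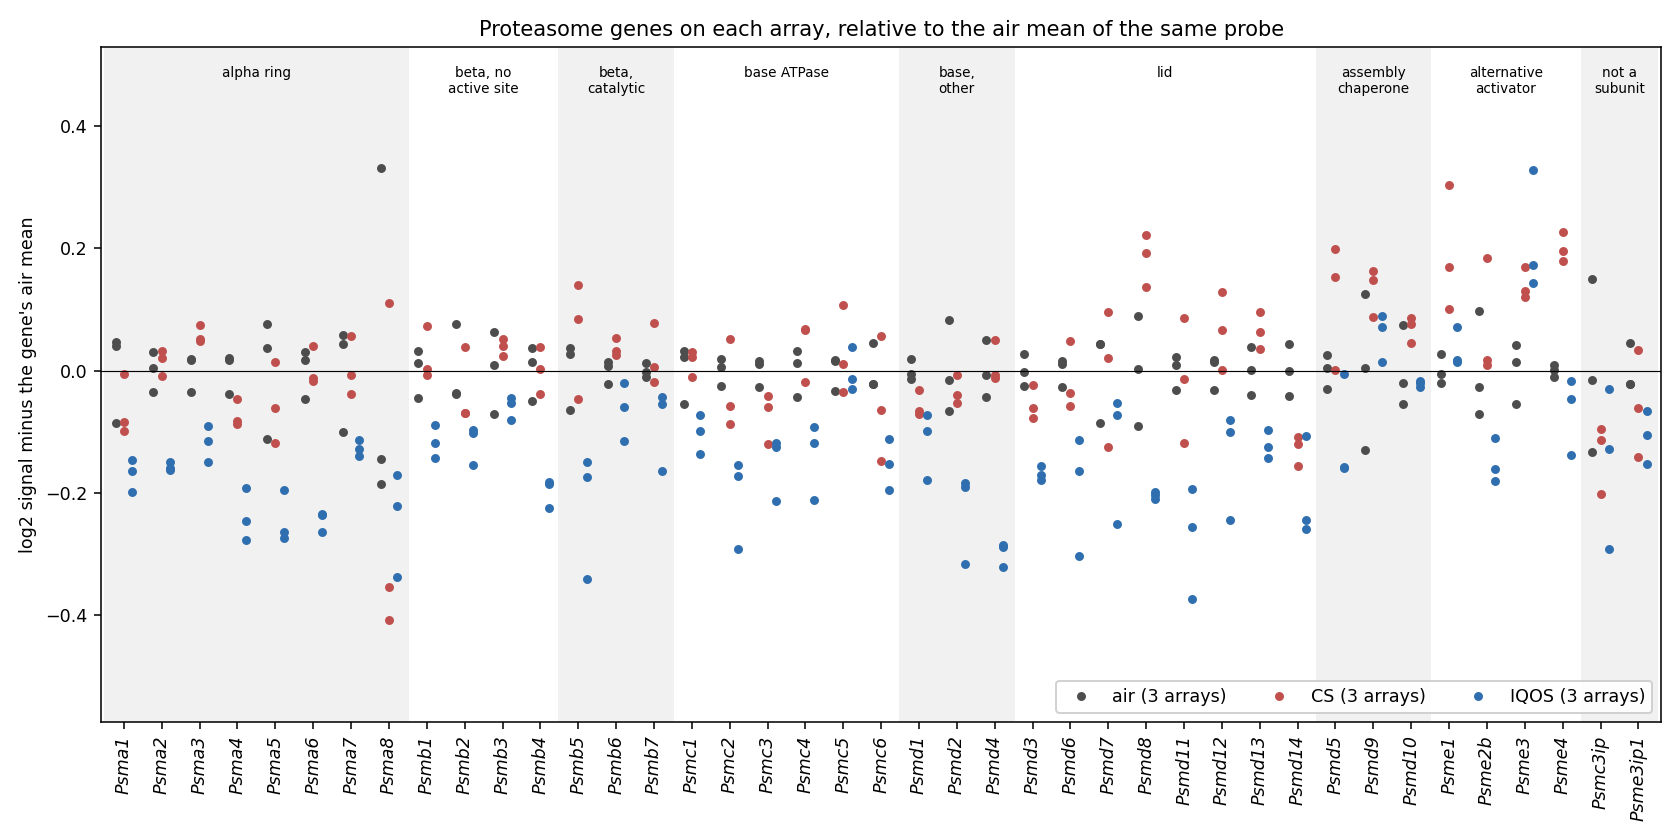
Level of each tested member on each of the 9 arrays, as the log2 difference from the mean of the 3 air arrays (y axis), with members along the x axis ordered by their place in the proteasome. The IQOS points lie below 0 for most core and regulatory particle members, while the CS points lie around 0.

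Array layout limits every IQOS comparison. Slide 1 carried air and CS and slide 2 carried IQOS alone, so effects of the slide and of IQOS cannot be told apart and no within-slide value can be had for IQOS. Air 1, air 2 and the IQOS arrays lay in array row 1, and air 3 and the CS arrays in row 2. With array row as a term in the fit, 0 members passed in any of the 3 comparisons, while 37 of 41 changes stayed below 0 for IQOS minus air (median -0.15) and 37 for IQOS minus CS (median -0.14). Few probes of any gene passed in that fit: 311 for CS minus air, 287 for IQOS minus air and 83 for IQOS minus CS. Without the term it was 3840, 1387 and 3590 of 37258 probes. That row term rests on the 3 air arrays alone, with air 3 the only one in row 2. The 75th percentile signal ran from 973 to 1098 units, 64.3% to 68.8% of probes were well above background and 0 spots were saturated.

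The averages of the core and regulatory particles differed by less than the spread between arrays. Averaged over the 15 core genes, the difference from the air mean was -0.18, -0.15 and -0.15 in IQOS 1 to 3, -0.01, -0.02 and -0.01 in CS 1 to 3, and 0.01, -0.03 and 0.02 in air 1 to 3. Averaged over the 17 regulatory genes, it was -0.22, -0.15 and -0.13 in IQOS 1 to 3, -0.05, -0.00 and 0.04 in CS 1 to 3, and 0.02, -0.01 and -0.01 in air 1 to 3. On both averages all IQOS arrays lay below all air and CS arrays, which overlapped each other. The core average was -0.16 ± 0.02 in IQOS and -0.01 ± 0.01 in CS, and the regulatory average -0.17 ± 0.05 in IQOS and -0.00 ± 0.05 in CS (SD, n = 3). Core minus regulatory was 0.01 ± 0.03 in IQOS, -0.01 ± 0.04 in CS and 0 ± 0.03 in air (SD, n = 3). These averages weight genes equally and describe the members; no p is given for them because the genes were chosen with earlier results of these data known.

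**Figure D2:**
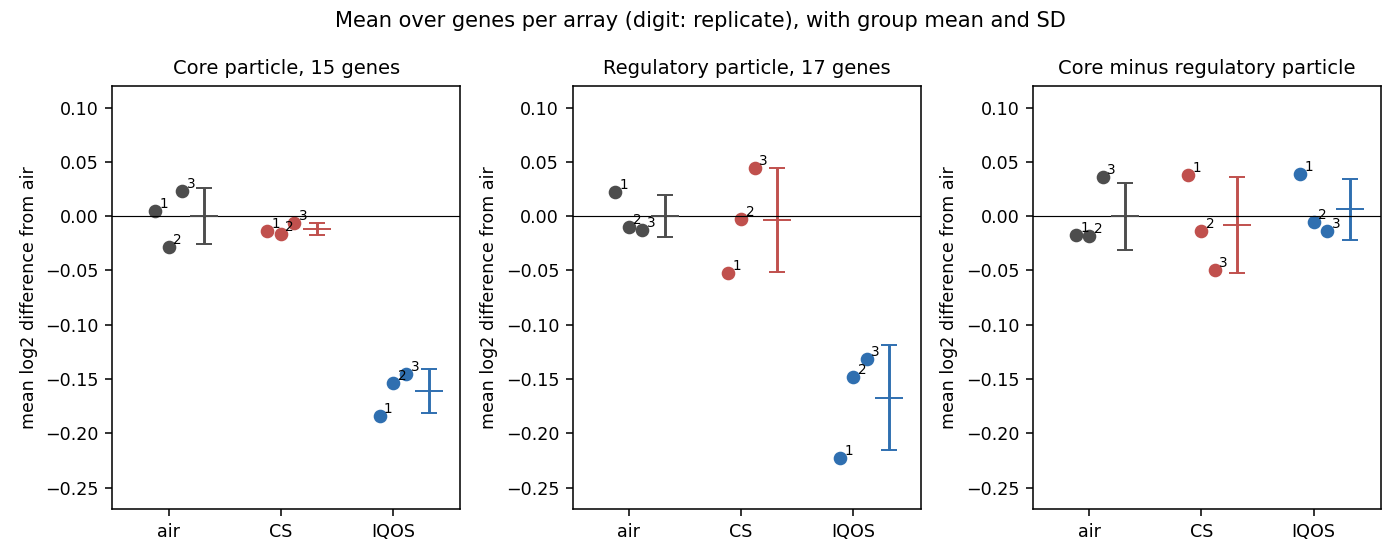
Mean log2 difference from air over the core particle genes, over the regulatory particle genes, and core minus regulatory (y axes), a point per array with the group mean and SD. IQOS arrays lie between -0.18 and -0.15 for the core and between -0.22 and -0.13 for the regulatory particle, and the core minus regulatory values of the groups overlap.

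On the brightest probe of each, all 32 core and regulatory genes had a change below 0 for IQOS minus air. The median was -0.16, which is a percent change of -10.2%. The groups did not overlap for 27 of them, 12 core and 15 regulatory (background 15.1% of genes lower). The changes ran from -0.30 for Psmd4 to -0.00 for Psmc5. For CS minus air the same 32 genes were 15 below and 17 above 0, from -0.22 for Psma8 to 0.18 for Psmd8. For IQOS minus CS all 32 were below 0 with a median of -0.15, and 26 were lower without overlap, 14 core and 12 regulatory (background 16.8%). The same backgrounds apply to the counts without overlap for the rings, base and lid below.

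The alpha ring, which gates entry to the core, had a median change of -0.20 for IQOS minus air over its 8 genes, of which 7 did not overlap. Psma6, an alpha ring subunit, measured 4.46, 4.40 and 4.47 in air 1 to 3, 4.48, 4.43 and 4.43 in CS 1 to 3, and 4.21, 4.21 and 4.18 in IQOS 1 to 3. All IQOS values lay below all others, and the air and CS values overlapped. Psma6 fell by 0.25 ± 0.05 against air (limma adjusted p 0.0454, percent change -15.7%) and by 0.25 ± 0.05 against CS (adjusted p 0.0264). Its call against air ended when any 1 of the 9 arrays was left out (adjusted p 0.058 to 0.161), and its call against CS held only without air 2 or air 3 (up to 0.0744).

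Psma4, another alpha subunit, measured 4.80, 4.74 and 4.80 in air, 4.69, 4.74 and 4.70 in CS and 4.54, 4.50 and 4.59 in IQOS. Its change of -0.24 ± 0.05 for IQOS minus air did not pass (limma adjusted p 0.0507), and neither did that of Psma5, -0.24 ± 0.07 (adjusted p 0.0953). On the dimmer Psma4 probes the changes with CS were -0.17, -0.22 and -0.21 (limma adjusted p 0.159, 0.0798 and 0.0656). Every CS array lay below every air array on each of them. Their changes for IQOS minus CS were 0.04, -0.06 and -0.13. Psma3 had the smallest change in the ring for IQOS minus air, -0.12 ± 0.05, and the most positive for CS minus air, 0.06 ± 0.05. It measured 5.20, 5.14 and 5.19 in air, 5.23, 5.23 and 5.25 in CS and 5.03, 5.09 and 5.06 in IQOS, so that all 3 groups were apart, with adjusted p-values of 0.221 against air and 0.0645 against CS. On a second, dimmer Psma3 probe the changes were 0.02 with CS and -0.06 with IQOS, and both exposures overlapped air. Psma8, the testis-type alpha subunit, was the dimmest and most scattered, at -3.35, -2.83 and -3.31 in air, -3.05, -3.57 and -3.51 in CS and -3.38, -3.33 and -3.50 in IQOS. Its groups overlapped throughout, and its interval for IQOS minus air ran from -0.65 to 0.16. Psma1, Psma2 and Psma7 changed by -0.13 to -0.17 for IQOS minus air, with no overlap and no pass.

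The beta ring had a median of -0.12 for IQOS minus air over 7 genes, with 5 not overlapping and 0 passing, and of -0.11 for IQOS minus CS, with all 7 not overlapping. Psmb5, the catalytic subunit with chymotrypsin-like activity, measured 2.88, 2.78 and 2.87 in air, 2.79, 2.93 and 2.98 in CS and 2.50, 2.67 and 2.69 in IQOS. IQOS lay below both other groups, by -0.22 ± 0.08 against air (limma adjusted p 0.152) and -0.28 ± 0.08 against CS (adjusted p 0.0597). Psmb6, with caspase-like activity, measured 5.29, 5.25 and 5.28 in air, 5.32, 5.30 and 5.30 in CS and 5.16, 5.21 and 5.25 in IQOS. IQOS and air overlapped at their edge, and the change was -0.06 ± 0.05 (limma adjusted p 0.502). On a second, dimmer Psmb6 probe the change was -0.13 (limma adjusted p 0.257), and all IQOS arrays lay below all air arrays. Psmb7, with trypsin-like activity, measured 2.51, 2.49 and 2.50 in air, 2.48, 2.58 and 2.51 in CS and 2.34, 2.45 and 2.46 in IQOS, a change of -0.09 ± 0.06 (adjusted p 0.417). Of the 3 catalytic genes, none passed in any comparison, and none changed by more than 0.06 for CS minus air. The intervals for IQOS minus air ran from -0.40 to -0.04 for Psmb5, from -0.18 to 0.05 for Psmb6 and from -0.22 to 0.05 for Psmb7. With normexp background correction the changes of Psmb6 and Psmb7 for IQOS minus air turned above 0, to 0.03 and 0.05.

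The noncatalytic beta subunits complete the ring. Psmb4 changed by -0.20 ± 0.05 for IQOS minus air (limma adjusted p 0.0837) and by 0.00 for CS minus air. Psmb3 had the smallest change of the ring, -0.06 ± 0.06, with 4.67, 4.59 and 4.73 in air, 4.69, 4.70 and 4.71 in CS and 4.58, 4.61 and 4.62 in IQOS. IQOS and air overlapped. Psmb2 measured 0.29, 0.29 and 0.40 in air, 0.26, 0.37 and 0.26 in CS and 0.17, 0.23 and 0.23 in IQOS, a change of -0.12 ± 0.06 for IQOS minus air. Psmb1 changed by -0.12 ± 0.05 with no overlap.

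In the base of the regulatory particle, the median for IQOS minus air was -0.15 over 9 genes, with 8 not overlapping. Psmd4, the ubiquitin receptor that captures tagged substrates, measured 5.056, 4.962 and 4.999 in air 1 to 3, 4.993, 4.998 and 5.056 in CS 1 to 3, and 4.717, 4.684 and 4.720 in IQOS 1 to 3. Air and CS overlapped, and the highest IQOS array was below both. Psmd4 fell by 0.30 ± 0.05 against air (limma adjusted p 0.0291, percent change -18.7%) and by 0.31 ± 0.05 against CS (adjusted p 0.0151), the largest fall against air of the 41 members. The call against air held without CS 1 or CS 3 and ended without any other single array (up to 0.122), and that against CS ended without CS 2 or IQOS 2 (up to 0.0523). Psmd2, a scaffold of the base, changed by -0.23 ± 0.06 (adjusted p 0.0912).

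The 6 ATPases had a median of -0.15 for IQOS minus air, with 5 not overlapping and 0 passing. Psmc5 was the member of the particle with the smallest change, at 3.32, 3.32 and 3.27 in air, 3.27, 3.31 and 3.41 in CS and 3.27, 3.34 and 3.29 in IQOS. All 3 groups of Psmc5 overlapped, and its interval for IQOS minus air ran from -0.14 to 0.13. Psmc3 measured 5.89, 5.89 and 5.85 in air, 5.76, 5.82 and 5.84 in CS and 5.67, 5.75 and 5.76 in IQOS. It was 1 of the 4 members lower in CS without overlap, at -0.07 ± 0.06 (adjusted p 0.412). The dimmer Psmc3 probes did not share a direction. They changed by -0.08 and 0.02 for IQOS minus air, and by -0.01 and 0.13 for IQOS minus CS. Psmc4 measured 2.89, 2.82 and 2.87 in air, 2.84, 2.93 and 2.93 in CS and 2.65, 2.77 and 2.74 in IQOS, with changes of -0.14 ± 0.06 against air and -0.18 ± 0.06 against CS.

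The lid had a median of -0.18 for IQOS minus air over 8 genes, with 7 not overlapping and 0 passing. Psmd11, a lid subunit, measured 1.36, 1.31 and 1.35 in air, 1.22, 1.33 and 1.43 in CS and 0.97, 1.08 and 1.15 in IQOS. Its change of -0.27 ± 0.07 against air was the largest in the lid and did not pass (limma adjusted p 0.0823). Psmd14, the enzyme that cuts ubiquitin chains from substrates, measured 2.83, 2.74 and 2.78 in air, 2.63, 2.68 and 2.66 in CS and 2.54, 2.53 and 2.68 in IQOS. CS and IQOS were both below air for Psmd14, by -0.13 ± 0.06 and -0.20 ± 0.06, and overlapped each other. Psmd13 measured 3.91, 3.83 and 3.87 in air, 3.93, 3.90 and 3.96 in CS and 3.73, 3.77 and 3.74 in IQOS, the smallest change of the lid against air at -0.12 ± 0.05.

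In the lid subunit gene Psmd8, as on the probes used for Psma3 and Psme4, the exposures lay on opposite sides of air without overlap. The second probes to Psma3 and Psme4 did not show this. Psmd8 measured 2.15, 2.06 and 2.23 in air, 2.28, 2.37 and 2.34 in CS and 1.94, 1.94 and 1.95 in IQOS, and no 2 groups overlapped. Against air the change was 0.18 ± 0.06 with CS (limma adjusted p 0.0975) and -0.20 ± 0.06 with IQOS (adjusted p 0.111), neither of which passed. Between the exposures, Psmd8 was lower in IQOS than in CS by -0.39 ± 0.06 (adjusted p 0.0118, percent change -23.6%). That call held when each of the 9 arrays was left out in turn (adjusted p up to 0.0484) and ended with array row in the fit (0.41).

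**Figure D3:**
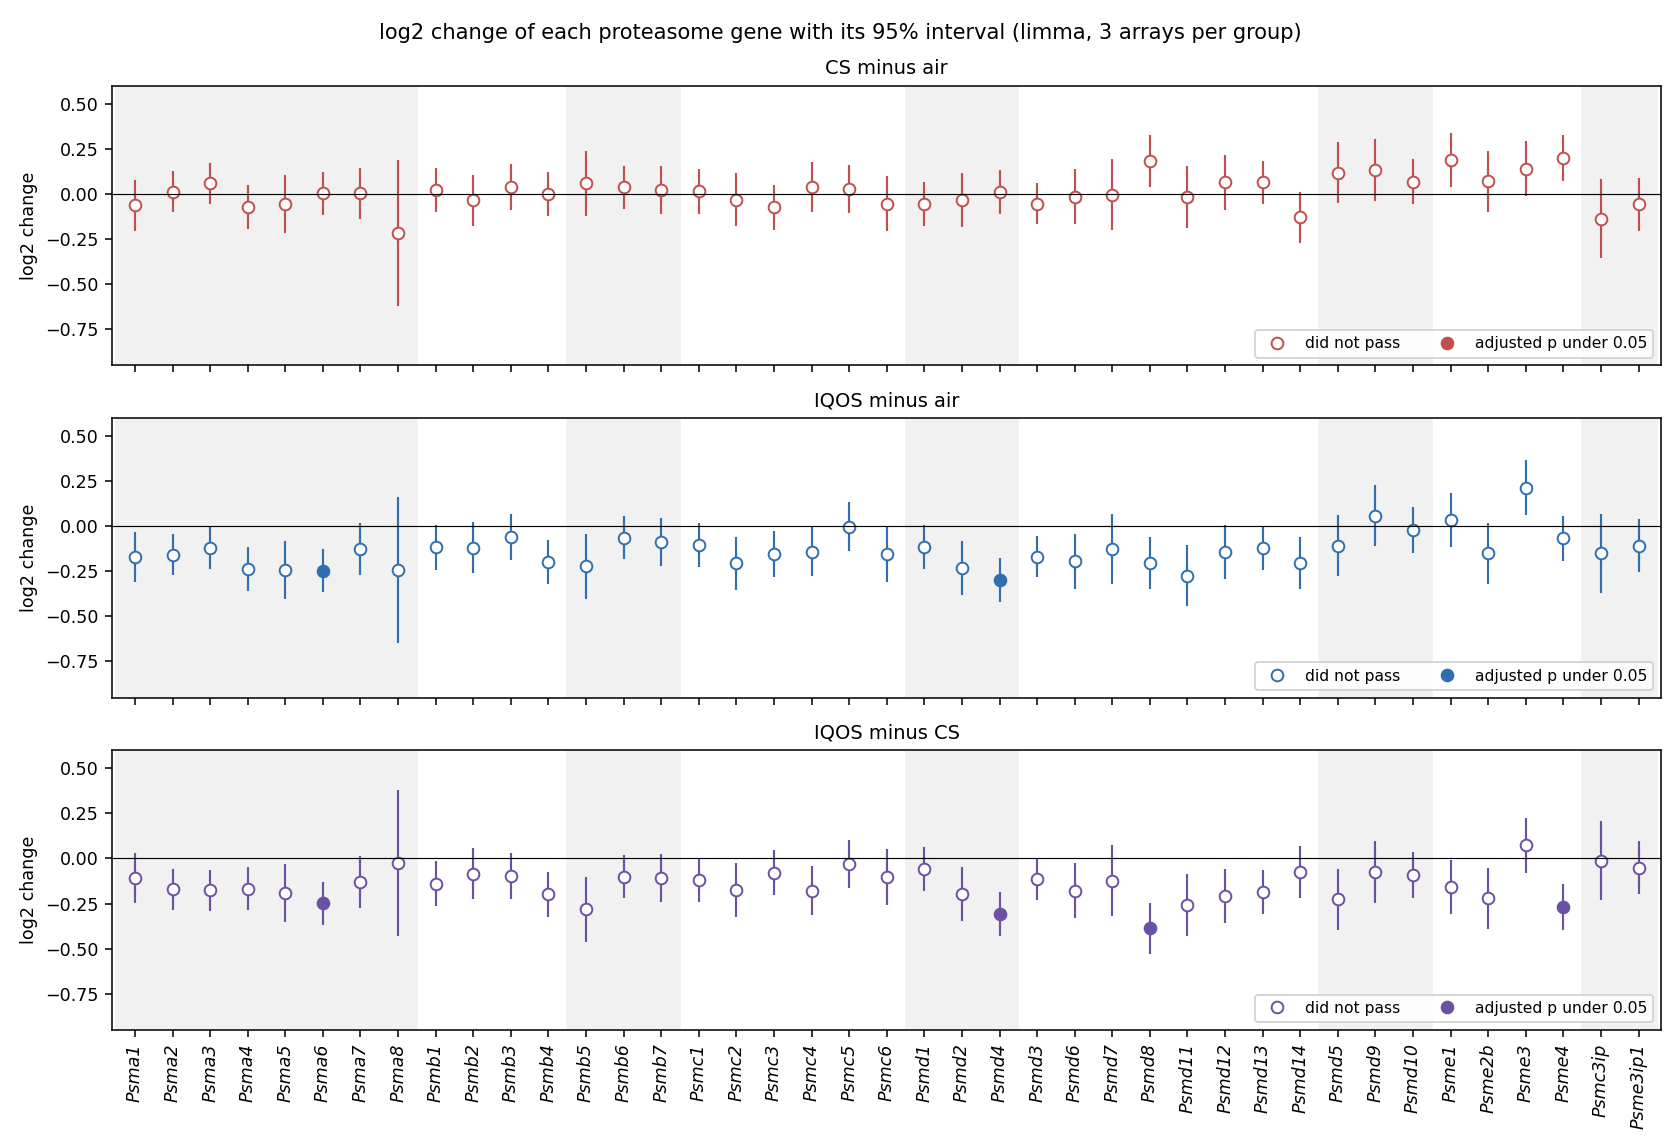
Log2 change of each tested member for the 3 comparisons (y axes), with 95% confidence intervals from limma, members along the x axis. Members that passed the test are marked: Psma6 and Psmd4 for IQOS minus air, and Psma6, Psmd4, Psmd8 and Psme4 for IQOS minus CS.

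The alternative activators, caps that open the core without the regulatory particle, lay on both sides of 0. Their 4 genes had a median change of 0.17 for CS minus air, all above 0 and 3 higher without overlap (background 17.2%). For IQOS minus air the median was -0.02, with 2 above and 2 below 0. Psme4, which encodes a single-chain cap, measured 2.85, 2.83 and 2.84 in air, 3.02, 3.06 and 3.03 in CS and 2.79, 2.82 and 2.70 in IQOS. The CS arrays lay above both other groups. The change with CS was 0.20 ± 0.05 (limma adjusted p 0.0551), and Psme4 fell by 0.27 ± 0.05 in IQOS against CS (adjusted p 0.0246). That last call ended without CS 2, CS 3 or any IQOS array (limma adjusted p up to 0.0837). It also ended with normexp background correction (0.114), no filter on dim probes (0.0618), only the groups compared (0.0722) and array row in the fit (0.401).

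Psme1, a subunit of the interferon-inducible cap, measured 3.77, 3.74 and 3.72 in air, 3.91, 4.05 and 3.85 in CS and 3.76, 3.76 and 3.82 in IQOS. CS lay above the other groups, at 0.19 ± 0.07 against air (limma adjusted p 0.0985), while IQOS and air overlapped. The Psme2b probe, which may measure Psme2, gave 5.62, 5.49 and 5.45 in air, 5.54, 5.70 and 5.53 in CS and 5.36, 5.34 and 5.41 in IQOS. IQOS lay below both other groups there, at -0.15 ± 0.07 against air (adjusted p 0.275). Psme3, which encodes the nuclear cap, measured 0.76, 0.79 and 0.69 in air, 0.92, 0.88 and 0.87 in CS and 0.89, 1.08 and 0.92 in IQOS. It was the 1 member with all IQOS arrays above all air arrays, and its changes of 0.14 ± 0.07 with CS and 0.21 ± 0.07 with IQOS did not pass (adjusted p 0.203 and 0.115).

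The chaperones Psmd5, Psmd9 and Psmd10, which help the base assemble, changed by 0.07 to 0.13 for CS minus air and by -0.11 to 0.06 for IQOS minus air, and their IQOS and air groups overlapped. Psmc3ip and Psme3ip1, which are not subunits, changed by -0.15 ± 0.10 and -0.11 ± 0.06 for IQOS minus air, and neither passed.

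The count for IQOS was similar over probes. Of 64 tested probes to the members, 59 were below 0 for IQOS minus air with 6 lower past the test, and 31 were below 0 for CS minus air with 0 past it. Of all 37258 tested probes, 1387 passed for IQOS minus air and 3840 for CS minus air, in either direction. The probes of a gene did not always share a call for IQOS minus air. The second probes to the 2 genes that passed did not pass: Psma6 was at -0.15 (limma adjusted p 0.152) and Psmd4 at -0.21 (0.115). Other probes passed where the brightest of their gene did not: -0.34 for Psma4 (limma adjusted p 0.0292), -0.34 for Psmd1 (0.0183) against -0.12 on its brightest probe, -0.30 for Psmd14 (0.036) and -0.30 for Psme4 (0.0334) against -0.07 on its brightest probe. The second Psme4 probe did not show the higher level with CS, with a change of -0.02, so the 2 Psme4 probes disagree on which exposure differs from air.

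Most members were bright, and 28 of the 41 belonged to the brightest of 5 equal groups of tested genes. In that group 19.7% of all genes were lower in IQOS than in air without overlap, and 24 of the 28 members were. Against CS the figures were 26.7% of genes and 25 of the 28 members, and for CS below air they were 18.1% of genes and 3 of the 28. The medians of that group were -0.02 for IQOS minus air and -0.03 for IQOS minus CS, and the dimmest group had a median of 0.10 for IQOS minus air.

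**Figure D4:**
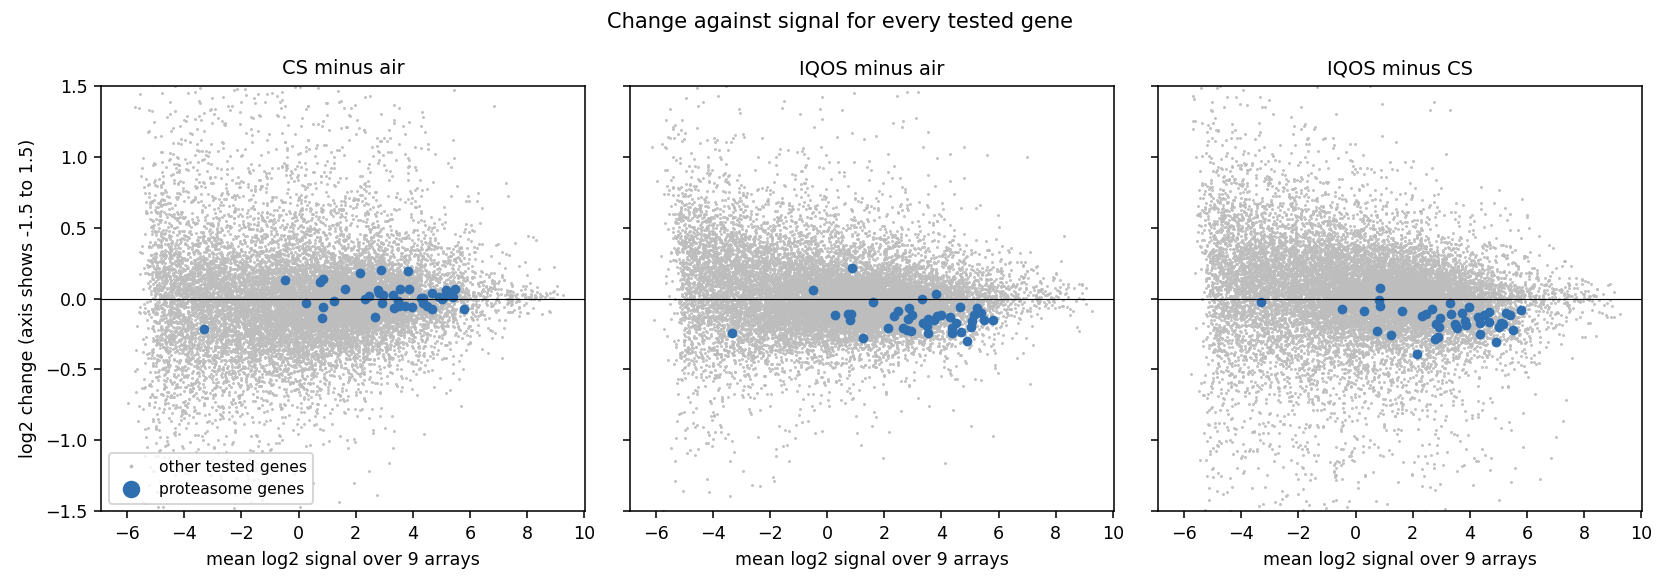
Log2 change (y axes) against mean log2 signal over the 9 arrays (x axis) for all tested genes in grey and the 41 members in colour, in 1 panel per comparison. Most members sit at high signal, 28 in the brightest of 5 equal groups, and below 0 in both IQOS comparisons.

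Genes that build or regulate the proteasome did not all move with the subunits. The immunoproteasome genes Psmb8, Psmb9 and Psmb10, which replace the catalytic subunits after interferon, changed by 0.20 ± 0.14, 0.12 ± 0.19 and 0.06 ± 0.09 with CS and by -0.06, -0.09 and -0.16 with IQOS, and none of the 3 passed. Of 5 core assembly genes 0 passed in any comparison. All 5 were below 0 for IQOS minus air, with a median of -0.14 and 3 lower without overlap (background 15.1%). For CS minus air 4 of the 5 were below 0, with a median of -0.10. The 1 above 0 with CS was Pomp, the maturation factor of the core. Pomp changed by 0.09 ± 0.05 with CS and -0.10 ± 0.05 with IQOS. Among the associated factors, Txnl1 and Zfand5 fell in IQOS against CS by 0.30 ± 0.08 and 0.28 ± 0.07. None of the 9 ubiquitin and unfoldase genes passed in any comparison.

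Nfe2l2 measured 3.71, 3.94 and 3.59 in air, 4.76, 4.65 and 4.62 in CS and 3.74, 4.09 and 3.66 in IQOS. It rose by 0.93 ± 0.13 with CS (limma adjusted p 0.0088), with all CS arrays above all others, and changed by 0.08 with IQOS. Nfe2l1 changed by -0.15 ± 0.07 with CS and by -0.16 ± 0.07 with IQOS, and neither passed. Of 9 regulator genes 3 rose with CS (Nfe2l2, Ddi2 and Maff) and 0 passed with IQOS. Of 8 NRF2 target enzymes 3 rose with CS past the test (background 5.60%), among them Nqo1 by 2.56 ± 0.41. With IQOS 0 passed, while 5 passed as lower in IQOS against CS (background 5.18%). All 8 were above 0 for CS minus air, with a median of 0.93 and 4 higher without overlap (background 17.2%). All 8 were lower in IQOS than in CS without overlap (background 16.8%). For IQOS minus air 7 of the 8 were below 0, with a median of -0.57 and 4 lower without overlap (background 15.1%). The 41 proteasome genes had a median of 0.01 with CS in the same arrays. Of 9 genes for peptide transport and class I antigen display, 2 rose with CS past the test and 0 with IQOS. All 9 were above 0 for CS minus air, with a median of 0.40, and 7 for IQOS minus air, with a median of 0.125.

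**Figure D5:**
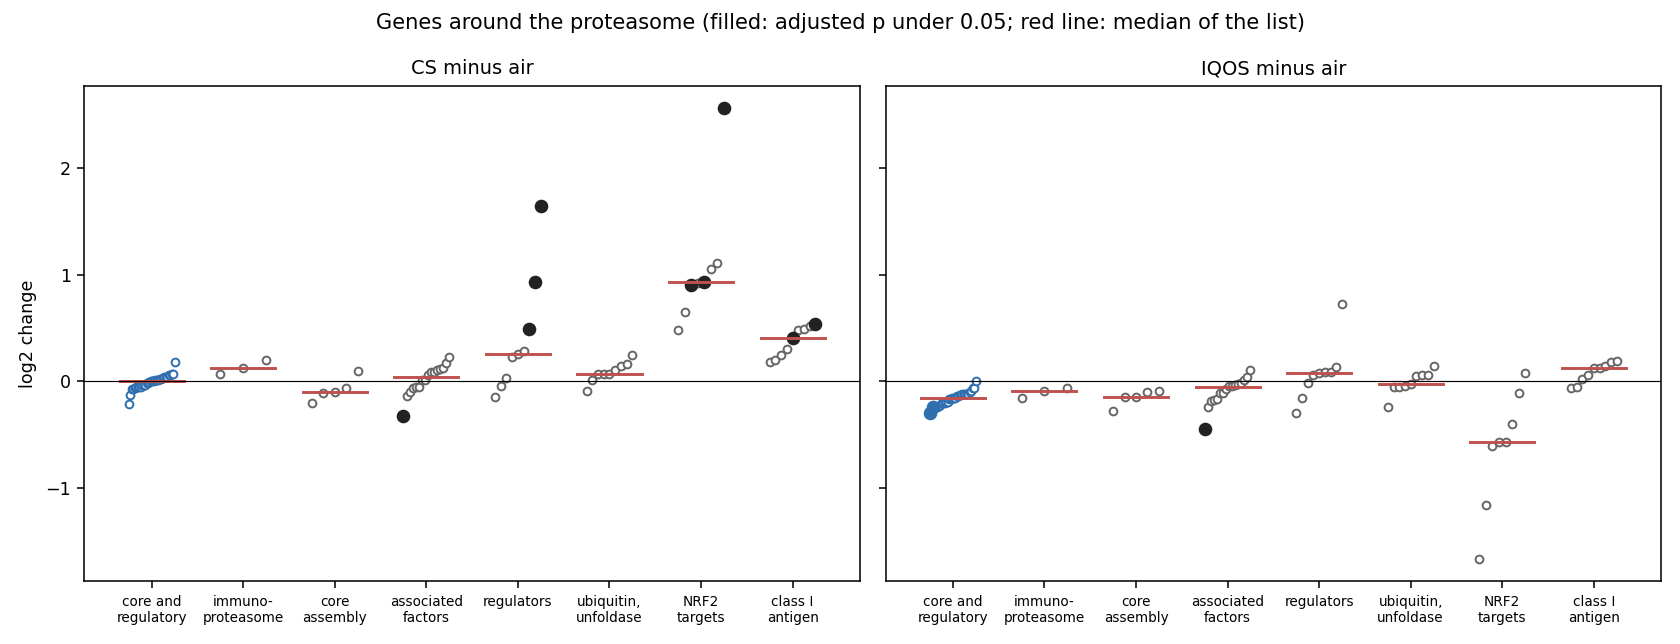
Log2 changes (y axes) of the genes in each list around the proteasome (x axis), a point per gene with the list's median. NRF2 target enzymes and regulator genes include genes that rose with CS, and the core and regulatory particle genes lie between -0.22 and 0.18 with CS and between -0.30 and -0.00 with IQOS.

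Markers of other lung cells were read on the same arrays. In a bulk lung sample, fewer cells of a type and less RNA per cell cannot be told apart. The summed linear level of 10 macrophage markers was 172 to 194 in air, 322 to 398 in CS and 196 to 224 in IQOS, with 5 rising with CS and 0 passing with IQOS against air. For the 7 tested of 8 neutrophil markers it was 183 to 229 in air, 330 to 740 in CS and 173 to 427 in IQOS, with 0 passing. For 8 B cell markers the summed level was 12.4 to 25 in air, 5.15 to 9.83 in CS and 9.52 to 20.1 in IQOS, with 4 falling with CS. For 9 lung tissue markers it was 1864 to 1913 in air, 1903 to 2046 in CS and 1764 to 1948 in IQOS, with 0 passing. No tested marker was at background on all arrays. The part of cell composition in the proteasome changes was not tested.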

How the data were processed

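Whole-lung RNA of 3 groups was measured on 9 single-dye arrays. Agilent Feature Extraction 10.7.1.1, per the submitters' processing notes, gave the spot intensities that the authors deposited, a background-subtracted signal for each spot. The authors' deposited value table gives each probe as a linear ratio to its array's 75th percentile, a scale found from the values, since no label gives it, and served as an alternative. Outlier spots were left out, and the log2 intensity of a probe's spots was averaged and reduced by the log2 of the array's 75th percentile over non-control probes. Tests covered probes for which each group had values on at least 2 arrays and at least 1 group was well above background on all of its arrays with a value, which left 37258 of 56605 probes. Probes were named by accession through a RefSeq gene table (32994 probes, 58.3%), and a gene was represented by its brightest tested probe.

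Contrasts were fitted with limma 3.58.1 in R 4.3.3 (lmFit and eBayes, all 9 arrays), and a gene passed at a Benjamini-Hochberg adjusted p under 0.05. The fit was tested on simulated data. Members, lists and alternatives were chosen with earlier results of these data known. Values on every array are given for members that passed, the catalytic subunits and the highest and lowest change of each structural group, and some others. The mean spot signal was not used here, so normexp (offset 50) ran on the median signal. The other alternatives were quantile normalization, median centring, other filters, robust eBayes with an intensity trend, the replicate block, array row, the mean of all probes, only the groups compared, a threshold of 0.1 and leaving out each array. The number of arrays limits the precision. A gene of the list of associated factors is not reported here.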

Additional observations from a re-analysis of the deposited data

How the results depend on the processing

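For IQOS minus air, 34 to 38 of 41 changes were below 0 over all settings run, with medians from -0.18 (median centring) to -0.11 (normexp), and members lower in IQOS than air without overlap numbered 20 (normexp) to 35 (median centring). For IQOS minus CS, 37 to 40 were below 0. For CS minus air the direction of the set turned with the processing, from 15 below 0 (without air 1 or without CS 1) to 29 (quantile normalization), with medians from -0.03 to 0.03 over all settings. The count that passed the test also varied. For IQOS minus air, where 2 passed, it was 10 with normexp, 6 with an intensity trend and robust eBayes, 7 at an adjusted p under 0.1, 1 with quantile normalization, 1 with median centring, and 0 with no filter on dim probes, with array row, with the mean of all probes or with only the groups compared. For IQOS minus CS, where 4 passed, it was 11 with normexp, 13 with the trend, 16 at 0.1, 2 with no filter, 2 with only the groups compared and 0 with array row. For CS minus air it was 1 with the trend (Psme4, higher) and 3 at 0.1. Leaving out 1 array at a time gave 0 to 1, 1 to 4 and 0 to 0 for the 3 comparisons, and core minus regulatory median changes of -0.0211 to 0.0229, -0.0166 to 0.0644 and -0.0011 to 0.0585 in the same order. That difference was 0.0448 with normexp and 0.0389 with the mean of all probes for IQOS minus air, and -0.0435 with array row for CS minus air. The cause was not tested. Slide could not be fitted as a block. Over all probes, 1387 passed for IQOS minus air in the fit used above, 2621 with normexp, 1744 with the trend and 3281 at 0.1. Quantile normalization gave 1225, median centring 780, no filter 356, array row 287 and only the groups compared 408. For IQOS minus CS, 3590 passed in that fit, 4858 with normexp, 4091 with the trend and 6523 at 0.1. No filter gave 1658, only the groups compared 1710 and array row 83.

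The replicate number as a block gave 0 members for IQOS minus air, 3 for IQOS minus CS and 0 for CS minus air. Over all probes 540, 2722 and 3249 passed, in the same order. Same-numbered arrays of different groups correlated between -0.078 and 0.2, and 7 of 9 arrays correlated best with their own number, a hint of shared structure from the data and not from the design. Since 4 of the 9 pairs were over 0.1 and the others were not, the numbers were not taken as pairs. With the block the adjusted p for IQOS minus air was 0.0892 for Psma6 and 0.0652 for Psmd4 in limma.

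Switches of sign were followed only for members that passed, the catalytic subunits and the highest and lowest change of each structural group. The lists below therefore do not cover all 41 members. With quantile normalization 29 of the 41 were below 0 for CS minus air, against 17 in the fit used above. Among the members followed, single changes, at most 0.11 in size in the fit used above, switched sign, none of them past the threshold. With normexp these were Psmb3 0.0408, Psmb6 0.032, Psmb7 0.0511 and Psme4 0.0231 for IQOS minus air, and Psmb7 0.0115 and Psmd14 0.0661 for IQOS minus CS. With quantile normalization they were Psma6 -0.0598, Psmb3 -0.0146, Psmb6 -0.0188, Psmb7 -0.0031, Psmc5 -5e-04, Psmd4 -0.0429 and Psme2b -0.0015 for CS minus air, and Psmc5 0.0174 and 0.0179 for IQOS against air and CS. Median centring gave Psma6 -0.0043, and the mean of all probes Psmd4 -0.0208, for CS minus air, and the latter Psmc3 0.014 for IQOS minus CS. Array row gave Psma6 -0.0264 and Psmb3 -0.0239 for CS minus air, and Psmb2 0.0286 and Psme3 -0.0085 for IQOS minus CS. Leaving out 1 array at a time gave ranges across 0. For CS minus air they were -0.0197 to 0.0185 for Psma6, -0.07 to 0.0038 for Psmb2, -0.0063 to 0.0416 for Psmb7, -0.012 to 0.0588 for Psmc5, -0.0118 to 0.0353 for Psmd4 and -0.0664 to 0.0353 for Psmd11. Psmc5 ranged from -0.0218 to 0.0125 for IQOS minus air and from -0.0606 to 0.0102 for IQOS minus CS, where Psma8 ranged from -0.1219 to 0.1374.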

Other observations

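The second probe to Psmc4 stood apart on 1 array. Its log2 signal was 1.43 on CS 2 and between -1.87 and -1.35 on the other 8 arrays, while the brighter Psmc4 probe, used above, measured 2.93 on CS 2 beside 2.84 and 2.93 on the other CS arrays. This probe was singled out after its value was seen. It is among the 64 tested probes counted above and in the mean of all probes, and it does not represent Psmc4 in the other comparisons.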
